A study of Rattus norvegicus with 67 samples.

Results

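Endometrial tumours and normal endometrium of untreated BDII/Han rats were compared in the first of the study's 2 sequencing batches. The comparison held 30 of the 65 RNA-seq libraries analysed. These were the 25 tumour libraries and those 5 normal libraries whose tissue was not given as mixed, and they came from 9 tumour-bearing rats and 5 other rats, so that no rat gave both tissues. The rats were 15 months old, had received no intervention, and had been fed either normal chow with 3% of energy as fat (NC) or a high fat diet with 60% (HFD). Tumours of 5 NC rats gave 14 libraries and those of 4 HFD rats gave 11, and normal endometrium gave 1 library from each of 2 NC and 3 HFD rats. Libraries that carried the same animal number, diet, intervention and batch in their labels were taken as 1 rat, and a rat gave 1 to 4 tumour libraries. The study's methods count fewer NC rats with tumours than the labels' animal numbers do, and the labels were followed. A further 3 libraries of this batch, S1 from NC rat 1, S20 from NC rat 7 and S35 from HFD rat 22, carried a label of normal endometrium, but the study's supplement listed them as holding both normal and tumour tissue. They came from rats with tumours, were left out of the comparison and are described separately.

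The endometrium is the lining of the uterus, a glandular and luminal epithelium on a stroma that is remodelled under oestrogen and progesterone. BDII/Han is an inbred rat strain in which virgin females develop endometrial carcinoma spontaneously with age, and it serves as a model of hormone-related endometrial cancer. A piece of bulk tissue holds epithelium, stroma, vessels, muscle and leukocytes in unknown shares, and a lower value in bulk RNA does not tell fewer cells of a type apart from less RNA per cell.

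Expression was read as estimated counts per transcript, and these summed to 15310806 to 19710563 per library (median 17262064). A transcript is 1 RNA product of a gene, and the files identify transcripts by Ensembl number without gene names. None of the 31715 transcripts could be paired with a symbol here, so that the tissue labels were not checked against marker genes and no gene list was read. Only 2 transcripts are named in each direction. A transcript was tested where 5 or more of the 14 rats averaged 5 or more estimated counts, which left 20747. Of these, 16389 reached 5 counts in all 14 rats, 83 in no normal rat and 2 in no tumour rat.

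The rats did not separate cleanly by tissue. Libraries were compared by Pearson's r of log2 CPM (counts per 1e+06) across the tested transcripts, which are not independent replicates. Between tumour libraries of the same rat the median r was 0.969 (26 pairs). It was 0.929 between tumours of different rats (274 pairs), 0.887 between a tumour and a normal library (125 pairs) and 0.858 between normal libraries (10 pairs). Normal libraries were thus less alike among themselves than they were like tumours. NC rats 2 and 3 stood apart from the HFD normal rats, and HFD rat 8 lay among the tumours. Among the tumours NC rat 1 stood apart, with a median r of 0.898 to the other tumour rats, where the remaining 8 had values of 0.935 to 0.962. Counts of calls, and the main descriptions of the called transcripts, are therefore also given without NC rat 1 or NC rat 3.

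**Figure D1:**
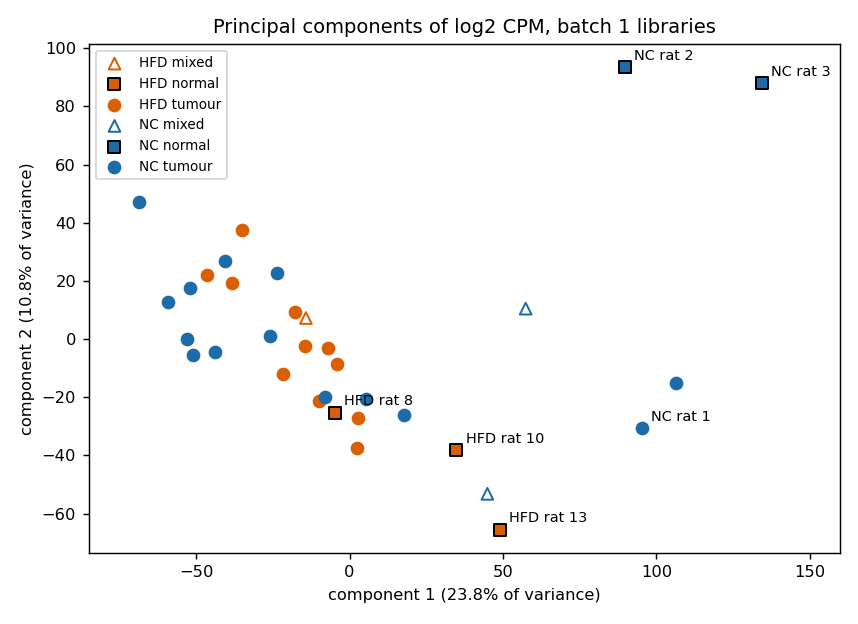
First 2 principal components of log2 CPM over 20747 transcripts in the 30 libraries and the 3 libraries of mixed tissue. Each point is 1 library, coloured by diet and shaped by tissue. The normal libraries of NC rats 2 and 3 sit at the upper right, away from the HFD normal libraries, and both tumour libraries of NC rat 1 lie to the right of all other tumour libraries.

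With diet as a term, tumours and normal endometrium differed in 1186 transcripts, or 5.72% of those tested, by limma voom with a correlation for libraries of the same rat at an adjusted p under 0.05. In tumours 338 were higher (1.63%) and 848 lower (4.09%). The correlation within rats was 0.617. The higher transcripts had a median log2 fold change of 1.30 (quartiles 0.95 and 1.67), and 23 of the 338 exceeded 2. The lower transcripts had a median of -1.71 (quartiles -2.94 and -0.96), and 360 of the 848 were beyond -2, of which 206 were beyond -3. Over all tested transcripts the median log2 fold change was -0.02. Scaled by library total in place of the median of ratios, 465 transcripts were higher and 617 lower, which moved the share of higher calls from 28.5% to 43%.

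How many transcripts passed differed widely between tools. With the libraries of a rat added together, the quasi-likelihood test of edgeR called 80 of the same 20747 transcripts (0.386%), 5 higher and 75 lower, with 3892 at an unadjusted p under 0.05. Of these 80, 77 were also called by limma in the same direction. DESeq2 on the same sums called 1939, 996 higher and 943 lower, so that the excess of lower transcripts was not seen with it. For 12 of the 338 higher transcripts the values of every tumour rat lay above those of every normal rat, a pattern seen in 0.159% of all tested transcripts. The converse held for 63 of the 848 lower transcripts and for 0.371% of all tested. The same values had called these transcripts, so the counts carry no test.

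The transcripts that changed in either direction differed in abundance. Those higher in tumours had a median level of 34.5 TPM (transcripts per 1e+06, scaled for length) in tumours and 14.4 TPM in normal endometrium. The lower ones had medians of 6.34 TPM in tumours and 20.2 TPM in normal endometrium, while all tested transcripts had medians of 7.67 and 7.00 TPM. In tumours 161 of the 848 lower transcripts (19.0%) averaged under 1 TPM, near the 15.4% of all tested, and in normal endometrium 11 did (1.30%, against 17.6% of all tested). Conversely, 119 of them averaged over 100 TPM in normal endometrium and 27 in tumours, and the share of all tested over 100 TPM is not given here. The lower transcripts were called because their levels were higher in normal endometrium than in tumours. These differences between the tissues therefore follow in part from the choice and are no separate result. Among the 2764 transcripts with a mean log2 CPM over 6, 165 were called higher (5.97%) and 106 lower (3.84%), and among the 7095 with a mean under 2, 11 were called higher (0.155%) and 304 lower (4.28%). The share called lower was thus near that of all tested at both levels, and the share called higher was not. The median transcript length was 2638.5 bases for the higher and 2173 bases for the lower transcripts, against 2130 bases over all tested. The 100 most abundant transcripts of normal endometrium and of tumours had 77 in common. Of the 100 in normal endometrium 12 were called lower in tumours and 1 higher, and of the 100 in tumours 12 were called higher and 1 lower. Of all tested transcripts 4.09% were called lower and 1.63% higher. The 100 were picked by the same levels that gave the calls, so the mirrored counts are no separate result.

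The transcripts below have the smallest p in each direction among called transcripts with a mean log2 CPM of at least 1, so that their tests describe the top of the list. ENSRNOT00000022908.5, 1842 bases long, was higher in tumours. Its level was 31.7 TPM in NC rat 2 and 25.05 TPM in NC rat 3, and 51.5, 44.2 and 41.3 TPM in HFD rats 8, 10 and 13, all from normal endometrium. Over the 9 tumour rats it ranged from 58.6 TPM in NC rat 1 to 75.9 TPM, with a median of 73.8 TPM. In TPM every tumour rat exceeded every normal rat, whereas in scaled CPM the tumour of NC rat 6 (82.6 CPM) lay just below the normal endometrium of HFD rat 8 (83.3 CPM). The means were 71.8 TPM ± 5.37 (SD, n = 9 rats) in tumours and 38.7 TPM ± 10.4 (SD, n = 5 rats) in normal endometrium. The log2 fold change was 0.82 (SE 0.13), with an adjusted p of 0.000227 by limma and 0.0495 by edgeR on rat sums. An exact permutation test over the 14 rats, two-sided and without diet, gave p = 0.000999.

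ENSRNOT00000015579.6, 1990 bases long, was also higher in tumours. Normal endometrium held 61.3 TPM in NC rat 2, 31.7 TPM in NC rat 3, 84.7 TPM in HFD rat 8, 66.3 TPM in HFD rat 10 and 73.2 TPM in HFD rat 13. Tumour rats ranged from 111 TPM in NC rat 1 to 216 TPM in HFD rat 11, with a median of 159 TPM. No tumour rat overlapped a normal rat on either scale. The log2 fold change was 1.25 (SE 0.22), with an adjusted p of 0.000452 by limma and 0.0427 by edgeR. The exact permutation test gave p = 0.0005, which is the smallest that 5 against 9 rats can give.

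ENSRNOT00000089434.1, 4167 bases long, was lower in tumours. Normal endometrium held 39.3 TPM in NC rat 2 and 49.1 TPM in NC rat 3, but 2.69, 5.01 and 3.45 TPM in HFD rats 8, 10 and 13. Tumour rats ranged from 0.906 TPM in HFD rat 21 to 4.20 TPM in NC rat 1, with a median of 1.22 TPM. The high values were those of the NC normal rats, and the tumour of NC rat 1 lay within the range of the HFD normal rats. The log2 fold change was -3.56 (SE 0.38), with an adjusted p of 3.03e-07 by limma and 0.0427 by edgeR, and the exact permutation test gave p = 0.0015.

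ENSRNOT00000091816.1, 6384 bases long, fell furthest of the named transcripts. Its level was 98.0 TPM in NC rat 2 and 131 TPM in NC rat 3, against 3.24, 2.03 and 3.40 TPM in the normal endometrium of HFD rats 8, 10 and 13. In tumour rats it ranged from 0.353 TPM in HFD rat 21 to 1.48 TPM in NC rat 1, with a median of 1.17 TPM. Both diets had normal rats above all tumour rats, but the NC normal rats were an order of magnitude above the HFD normal rats. The log2 fold change was -4.82 (SE 0.51), with an adjusted p of 3.12e-07 by limma and 0.0427 by edgeR. For this transcript the exact permutation test gave p = 0.0005.

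**Figure D2:**
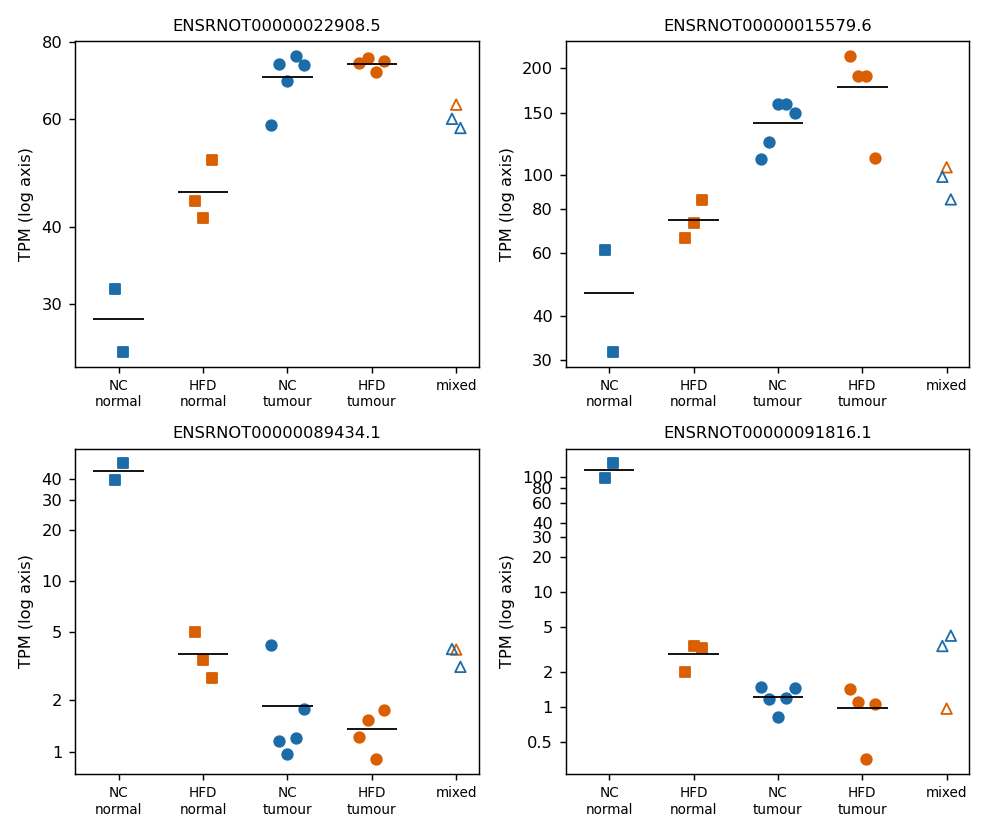
Level in TPM, on a log axis, of the 4 named transcripts, with 1 point per rat (mean of its libraries) and 1 per library of mixed tissue. Black lines are the means of the rats of each group. ENSRNOT00000091816.1 stands at 98.0 and 131 TPM in the NC normal rats and at or below 3.40 TPM in all HFD normal and all tumour rats.

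The pattern of the last pair was common among the called transcripts. Both NC normal rats lay above the 12 other rats, HFD normal endometrium included, in 499 of the 848 lower transcripts (58.8%) and in 9.12% of all tested transcripts. They lay below the 12 others in 217 of the 338 higher transcripts (64.2%), against 10.6% of all tested. The 3 HFD normal rats lay above all 9 tumour rats in 103 of the 848 (12.1%, against 1.95% of all tested) and below them in 13 of the 338 (3.85%, against 0.858%). These counts describe the transcripts the same values had called and carry no test. Among the transcripts called without NC rat 1, the NC normal rats lay beyond the remaining rats in 47.7% of the lower and 64.8% of the higher ones, against 11.2% and 14.3% of all tested.

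The share of all TPM held by the called transcripts showed the same order of rats. The 848 lower and 338 higher transcripts were called from these same rats, so their shares carry no test. The 848 lower transcripts held 12.1% of all TPM in NC rat 2 and 16.3% in NC rat 3. They held 2.74%, 4.15% and 5.83% in the normal endometrium of HFD rats 8, 10 and 13. In tumours they held 4.29% in NC rat 1 and 1.41% to 2.98% in the remaining 8 rats, so that NC rat 1 fell within the range of the HFD normal rats. The 338 higher transcripts held 0.691% to 4.09% in the normal rats, 1.503% in NC rat 1 and 3.08% to 8.24% in the other tumours. The 269 transcripts called lower without NC rat 3 held 8.20% and 11.2% in NC rats 2 and 3 and 0.530% to 3.07% in the other rats.

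A position was computed for each rat as its median distance over the 1186 called transcripts from the normal mean, set to 0, towards the tumour mean, set to 1. NC rats 2 and 3 stood at -0.50 and -0.86, beyond the normal mean. HFD rats 13, 10 and 8 stood at 0.23, 0.38 and 0.77. NC rat 1 stood at 0.37 and the other 8 tumour rats at 0.85 to 1.28. On this scale HFD rat 8, labelled normal, was nearer to the tumour mean, and NC rat 1, labelled tumour, was nearer to the normal mean. Computed without NC rat 1 on the transcripts called without it, that rat stood at -0.11 and HFD rat 8 at 0.71. Computed without NC rat 3, NC rat 1 stood at 0.51 and HFD rat 8 at 0.54, both close to the middle. Apart from a rat left out, each rat helped to choose the transcripts and to set the means, NC rats 2 and 3 included. Its position is therefore partly fixed by that choice and carries no test of its label.

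**Figure D3:**
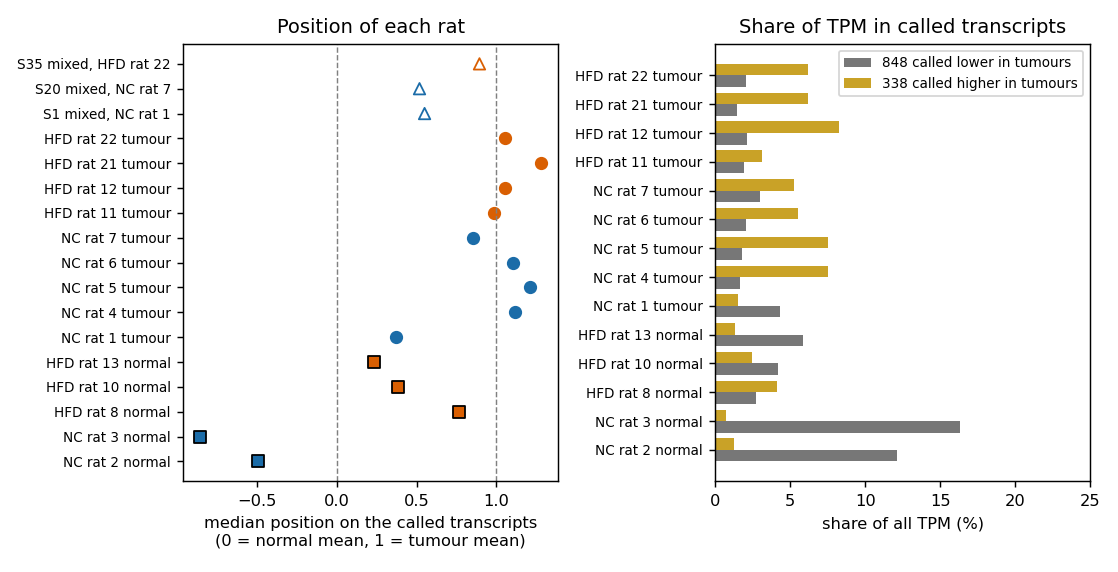
Left, median position of each rat and of the 3 libraries of mixed tissue on the 1186 called transcripts, from the normal mean (0) to the tumour mean (1). Right, share of all TPM, in percent, held by the transcripts called lower and higher in each of the 14 rats. NC rats 2 and 3 hold 12.1% and 16.3% in the lower transcripts and all other rats at most 5.83%.

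The libraries of mixed tissue lay between the tissues or near the tumours. S1 stood at 0.55, S20 at 0.52 and S35 at 0.90, while the tumours of the same rats stood at 0.37, 0.85 and 1.06. Each of the 3 libraries correlated more closely with tumours of its own rat (median r 0.954, 0.947 and 0.953) than with the normal libraries (0.902, 0.922 and 0.890), which were all from other rats. Against tumours of other rats the mixed libraries had a median r of 0.916 (67 pairs) and against normal libraries 0.902 (15 pairs). For the higher transcripts S1 and S20 stood nearer to normal endometrium (0.35 and 0.18), and for the lower ones nearer to tumours (0.65 and 0.65). ENSRNOT00000022908.5 was at 60.0, 57.96 and 63.3 TPM in S1, S20 and S35, above all 5 normal rats and, except in S35 and S1, below all tumour rats. ENSRNOT00000091816.1 was at 3.38 TPM in S1 and 4.16 TPM in S20, near the HFD normal rats, but at 0.965 TPM in S35, within the tumour range. With the 3 libraries kept as normal endometrium, as they were labelled, limma called 8 transcripts of 21053 tested (0.0380%), 5 higher and 3 lower, and 3564 at an unadjusted p under 0.05.

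In the NC rats alone, 2333 transcripts differed between 5 tumour rats and 2 normal rats (11.2% of those tested, by limma), 834 higher (4.02%) and 1499 lower (7.23%). In the HFD rats, with 4 tumour and 3 normal rats, 87 transcripts differed (0.419%), and all 87 were lower in tumours. The median SE of a log2 fold change over all tested transcripts was 0.49 in NC and 0.44 in HFD rats. On rat sums edgeR called 2276 transcripts in NC rats (11.0%), 1251 higher and 1025 lower, so that the direction of the larger group depended on the tool. It called 0 in HFD rats (0.00%), where 2424 had an unadjusted p under 0.05. The difference between the diets, tested as an interaction, passed in 723 transcripts by limma (3.48%) and in 769 by edgeR (3.71%), of which 437 were called by both. In 540 of the 723 (74.7%) the fold changes of the 2 diets had opposite signs, against 45.7% of all tested, and in 645 (89.2%) the NC change was the larger, against 65.5% of all tested. The NC normal rats were the group farthest from the mean of the other 3 groups in 641 of the 723 (88.7%, against 57.1% of all tested transcripts). The HFD normal rats were farthest in the other 82 (11.3%, against 23.7% of all tested). Neither group of tumours was farthest in any of the 723. Over all tested transcripts NC tumours were farthest in 7.13% and HFD tumours in 12.1%. The 723 were chosen by the difference of the 2 fold changes in these same values. These shares of the 723 are therefore partly set by that choice and carry no test.

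The 2333 transcripts called in NC rats, which were chosen by their NC values, went both ways in HFD rats. Those higher in NC tumours had a median log2 fold change of 1.89 in NC and 0.18 in HFD rats, and those lower had medians of -1.51 and -0.14. The sign agreed in 63.9% of the 2333, against 54.3% of all tested. In both diets and in the same direction 7 transcripts were called. They are 8.05% of the HFD calls, near the 7.23% of all tested transcripts called lower in NC rats, and 0.300% of the NC calls, near the 0.419% of all tested called in HFD rats. The 338 transcripts called higher in the joint fit had medians of 2.12 in NC and 0.70 in HFD rats, and 336 had the same sign in HFD rats. The 848 called lower had medians of -2.16 and -0.86, with the same sign in HFD rats for 783. The joint fit used the HFD values too, so these signs were largely set by the choice of transcripts and carry no test. Of the named transcripts, ENSRNOT00000091816.1 had log2 fold changes of -6.69 (SE 0.34) in NC and -1.78 (SE 0.38) in HFD rats, and the difference of 4.91 had an adjusted p of 1.65e-06 by limma. ENSRNOT00000089434.1 had -4.89 (SE 0.30) and -1.63 (SE 0.34), with an adjusted p of 8.87e-05 for the difference. The diets were not shown to differ for ENSRNOT00000022908.5, at 1.24 in NC and 0.49 in HFD rats (adjusted p = 0.0628 by limma), or for ENSRNOT00000015579.6, at 1.57 and 0.99 (adjusted p = 0.513).

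**Figure D4:**
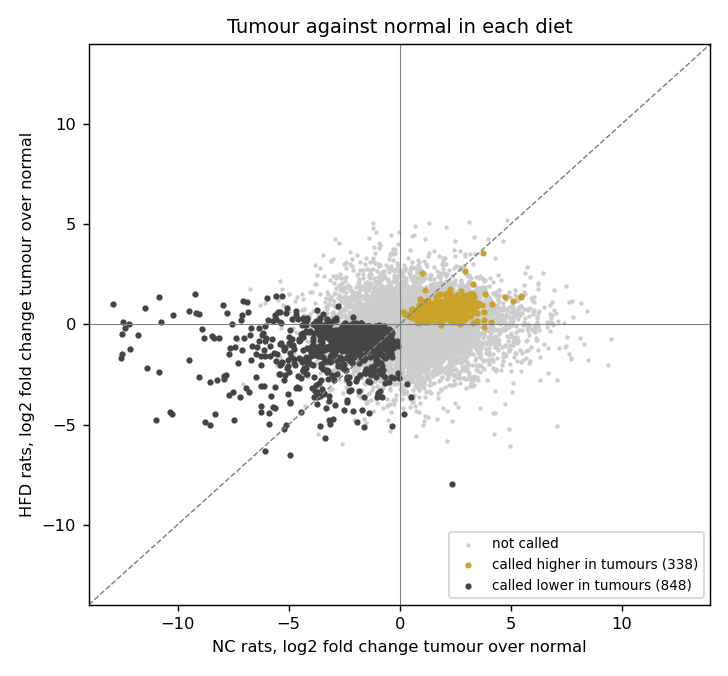
Log2 fold change of tumour over normal endometrium in HFD rats against that in NC rats for the 20747 tested transcripts. Transcripts called in the joint fit are coloured and the dashed line marks equal change. The called transcripts lie closer to the horizontal axis than to the line, with medians of 2.12 in NC and 0.70 in HFD rats for the higher and -2.16 and -0.86 for the lower ones.

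Which tissue had the larger spread between rats was not the same in the 2 diets. The median SD of log2 CPM per transcript was 0.50 over the 5 normal rats and 0.42 over the 9 tumour rats, and it fell to 0.35 without NC rat 1. Within a diet the normal rats were closer together than when pooled. The medians were 0.38 in HFD normal rats (n = 3) and 0.33 in HFD tumours (n = 4), the same order as pooled. They were 0.27 in NC normal rats (n = 2) and 0.45 in NC tumours (n = 5). The reverse order in NC rats rests on 2 normal rats, and NC rat 1 is among the tumours. Each normal rat gave 1 library, whereas most tumour rats gave several.

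The count of calls depended on single rats, and it moved past 1.5 times in 4 of the 14 fits that left out 1 rat. Some settings, given at the end, lowered it further. Without NC rat 1 limma called 2722 transcripts, or 13.2% of 20633 tested, 1127 higher and 1595 lower. All 338 higher and 830 of the 848 lower transcripts were among them. Without NC rat 3, 292 were called (1.42%), 23 higher and 269 lower, which kept 23 of the 338 and 244 of the 848. In the interaction 1799 transcripts were called without NC rat 1 and 197 without NC rat 3, and in NC rats 4436 and 775. The HFD count of 87 was 462 without NC rat 1, 344 without HFD rat 10 and 310 without HFD rat 8, and it fell to 3 or 4 without any 1 of HFD rats 12, 13, 21 and 22. Without NC rats 4, 5, 6 or 7 it was 46, 20, 16 or 56. In all 14 fits that left out 1 rat each, 20 of the 338 higher and 195 of the 848 lower transcripts were called. Each of these fits still held NC rat 2, NC rat 3 or both, so this does not show independence from that pair.

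**Figure D5:**
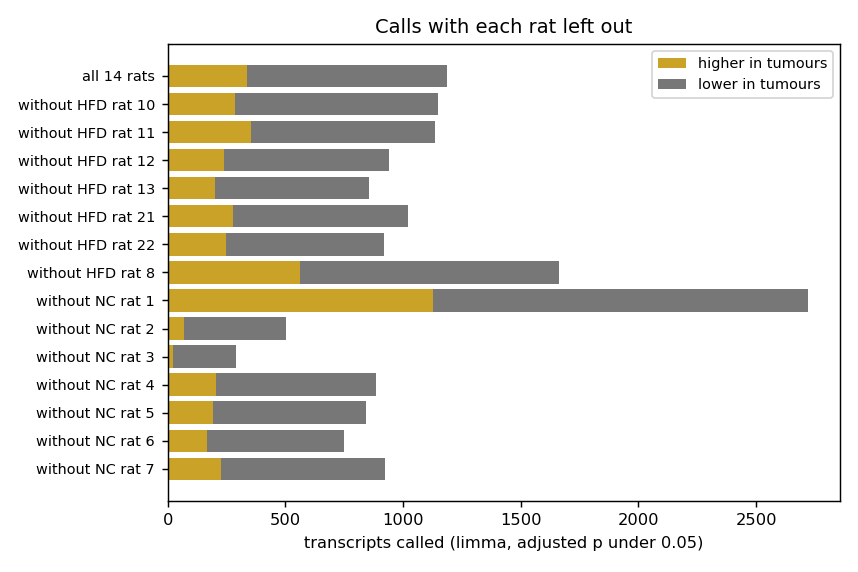
Transcripts called by limma between tumours and normal endometrium with all 14 rats and with each rat left out, split into higher and lower in tumours. The count runs from 292 without NC rat 3 to 2722 without NC rat 1.

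No difference between the tissues was detectable in the measures of whole libraries. Tumours had 19792 ± 382 transcripts with at least 5 estimated counts (SD, n = 9 rats) and normal endometrium 19613 ± 365 (SD, n = 5 rats), with p = 0.402 by an exact permutation test over rats. The 100 most abundant transcripts held 49.4% ± 4.00 of all TPM in tumours and 50.1% ± 3.58 in normal endometrium (exact permutation p = 0.751). Total estimated counts gave p = 0.425 by the same two-sided test, and over the 3 tests the adjusted p-values were 0.637, 0.751 and 0.637. The intervals of these differences were not computed, and a p of this size does not show that the tissues are equal.

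The second batch offered the same contrast in other libraries, though not in the same groups. All its rats were fed HFD, and 4 of them gave 6 tumour libraries while 23 gave 26 normal ones. These 23 rats carry 20 distinct animal numbers, since a number shared by different interventions was counted as different rats. Number 13, normal endometrium on HFD with no intervention, occurs in both batches and was also counted as different rats. Whether it was the same animal was not tested. The 4 tumour rats, 2 given liraglutide and 2 on a restricted diet, also gave normal tissue. With intervention as a term, limma called 3472 of 22157 transcripts higher in tumours (15.7%) and 2501 lower (11.3%). Of the 338 transcripts higher in tumours of the first batch, all were tested in the second, where 53 were called higher and 65 lower. Of the 848 lower transcripts 813 were tested, and 62 were called lower and 194 higher. The share called in the same direction was thus 15.7% of the higher and 7.63% of the lower transcripts, equal to or below the share of all transcripts called in that direction. Of the 1595 transcripts called lower without NC rat 1, 1566 were tested there, and 91 were called lower and 446 higher. Of the 87 called in HFD rats, 3 were called lower and 29 higher in the second batch. Over all 20555 transcripts tested in both batches the sign agreed in 41.1%, for the higher transcripts in 41.1% and for the lower in 35.1%.

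The 4 named transcripts differed in the second batch. ENSRNOT00000089434.1 was at 1.17 to 3.60 TPM in the 4 tumour rats of the second batch and at 0.305 to 1.78 TPM (median 0.702) in the normal endometrium of its 23 rats, a log2 fold change of 1.73 (SE 0.29, adjusted p = 0.000161 by limma) and thus the opposite of the first batch. No normal rat of the second batch came near the 39.3 and 49.1 TPM of NC rats 2 and 3. ENSRNOT00000091816.1 ranged from 0.690 to 30.6 TPM in those tumours and from 0.351 to 2.29 TPM in the normal rats, a log2 fold change of 0.80 (SE 0.50, adjusted p = 0.243 by limma). ENSRNOT00000022908.5 and ENSRNOT00000015579.6 had log2 fold changes of 0.12 and -0.30 there, with adjusted p-values of 0.273 and 0.0828 by limma. Diet, intervention, batch and the number of rats all differed between the batches, and their part in this contrast cannot be told apart. By the position computed with all rats, NC rat 1 and HFD rat 8 of the first batch lay nearer to the other tissue than to their own. Computed without NC rat 3, they stood close to the middle, at 0.51 and 0.54. Whether the tissue labels hold in either batch was not tested.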

How the data were processed

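Polyadenylated RNA of rat endometrium was sequenced as pairs of 75 bp. The authors trimmed the reads (BBDuk) and assigned them to Ensembl 94 transcripts of Rnor_6.0 by pseudo-alignment (Kallisto), and the submitters' processing notes name sleuth, all with versions not given in the sources used here. In the deposited table the values are estimated counts from Kallisto, unscaled between libraries, beside TPM that the authors also deposited. Kallisto divides reads among transcripts that share sequence, so that isoforms and near-identical transcripts are uncertain. The effective length, 1 further column of values, was not used.

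Estimated counts were fitted with limma 3.58.1 (voom, duplicateCorrelation on the rat in 2 rounds, robust empirical Bayes) in R 4.3.3, the authors' method, with diet as a term or with the 4 groups of diet and tissue. They were scaled by the median of ratios, filtered as described in the report, and called at a Benjamini-Hochberg adjusted p under 0.05. The authors' own filter, 5 counts in 47% of libraries, cannot pass a transcript found only in the 5 normal libraries and was kept as an alternative. Log2 CPM used a pseudocount of 0.5. For edgeR 4.0.16 and DESeq2 1.42.0, each rat's estimated counts were added up and rounded to whole numbers. The edgeR fit without its robust option was also seen before the robust one was kept. The limma and edgeR fits were tested on simulated counts. Of 528 pairs of batch 1 libraries the closest had a chi-square of 10.6 per transcript, so that none was counted as deposited again. No gene list was tested, for lack of symbols, and the named transcripts are those of smallest p, 2 per direction, with mean log2 CPM no lower than 1. The members, the filter and the rule for names were chosen with earlier results of these data known. The labels do not say whether libraries of a rat are separate tumours. P-values set a difference against the spread of these libraries and rats. Only tumour rats gave more than 1 library, so the correlation within rats came from tumours alone.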

Additional observations from a re-analysis of the deposited data

Results flagged for a closer look

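In 28 overlapping groups of 4 to 9 rats, values far from the others were looked for with Dixon's criterion, which chance meets in about 1 of 20 groups. NC rat 1 lay far from the other tumours, both among all 9 and among the 5 of NC rats, in its median r to the rats of its tissue (0.898) and in the log2 CPM of ENSRNOT00000089434.1 (3.96). HFD rat 21 was far below the other tumour rats in ENSRNOT00000091816.1, with a log2 CPM of 1.39 from 1 library. HFD rat 8 was far above the other normal rats in the share of TPM held by its 100 most abundant transcripts, at 56.4%. The change from normal endometrium to tumour differed between the diets in 723 transcripts by the interaction term of limma, among them ENSRNOT00000089434.1 by 3.26 and ENSRNOT00000091816.1 by 4.91 on the log2 scale, HFD minus NC. Only 2 NC and 3 HFD normal rats stand behind this difference.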

How the results depend on the processing

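The count of 1186 transcripts was 80 by edgeR on rat sums (86 without its robust option), 1939 by DESeq2 (996 higher, 943 lower), 28 by limma on means per rat, 150 with the deepest library of each rat, 2075 with no correlation within rats, 620 with a weight for each tissue, 575 without a diet term and 8 with S1, S20 and S35 kept as normal. Means per rat, single libraries and the sums per rat of edgeR and DESeq2 all leave 14 values to test. The cause of the shifts was not tested. It stayed within 1.5 times under the other scalings, the authors' filter, filterByExpr, no filter, counts from TPM, a fit that was not robust and library total as a term. With those 3 libraries kept, the NC, HFD and interaction counts were 34, 26 and 5. In HFD rats, edgeR called 0 and TMM scaling gave 45. Leaving out 1 rat gave 292 to 2722 transcripts, 775 to 4436 in NC rats, 3 to 462 in HFD rats and 197 to 1799 for the interaction. Without NC rat 1, chosen after seeing the data, edgeR called 866, and 4373, 0 and 1562 in those contrasts. The batch 2 count stayed within 1.5 times under edgeR and TMM scaling. The share of TPM in the leading transcripts, tumour minus normal, was 1.33 points for the 10 most abundant (exact permutation p = 0.663), the reverse of -0.72 for 100, and -1.38 to 0.85 with 1 rat left out, turning sign without HFD rat 8 (0.85) or NC rat 6 (0.0097). The difference in detected transcripts was 78.2 to 300.0 with 1 rat left out. The 4 named transcripts kept their direction under all 31 alternatives. Each missed the threshold under 2, means per rat (adjusted p = 0.0517 to 0.0660 by limma) and the 3 libraries kept (0.0505 to 0.0613). The 4 were picked for small p-values in these same libraries, so the kept direction is no separate support.

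No paired analysis was possible because no rat gave both tissues once S1, S20 and S35 were left out, and the groups share no rat numbers. The number of normal rats, 2 and 3 per diet, limits these comparisons.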
